A study of Homo sapiens with 18 samples.

Results

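The regions described here are 718 glucocorticoid receptor (GR) binding regions (GBR) of U2OS-GRα cells that were called with Hic-5 present, after depletion of Hic-5 and after both double depletions, but were missing from at least one of the lists made after depletion of a single chromatin remodeler. They were selected on the peak calls themselves. Each is a peak of the siHic5/siNS list that overlapped by at least 1 bp a peak in siNS/siNS, siCHD9/siHic5 and siBRM/siHic5, with no overlapping peak in siCHD9/siNS, in siBRM/siNS or in either. The 718 members were 7.53% of the 9533 GBR of the siHic5/siNS list. U2OS is a human osteosarcoma line, and U2OS-GRα is a derivative that stably expresses wild-type GRα. All cells received a pair of siRNAs for 48 h and then 100 nM dexamethasone (dex) for 1 h. The 6 combinations were siNS/siNS, in which both siRNAs were nonspecific, the single depletions siHic5/siNS, siCHD9/siNS and siBRM/siNS, and the double depletions siCHD9/siHic5 and siBRM/siHic5. Each had 2 ChIP libraries, made on different days with a mixture of GR antibodies, and 1 input library, for 18 libraries in all. The authors pooled the replicates into 1 peak list per combination, so no value below has a replicate spread, and each test compares the regions of these lists, not replicated conditions. Neither read counts nor the level of the depleted proteins is in the lists, and a region without a peak may still hold GR below the calling cutoff.

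GR is a ligand-activated transcription factor that enters the nucleus on binding a glucocorticoid such as dex and binds DNA as a dimer at the glucocorticoid response element (GRE), a pair of inverted half-sites separated by a short spacer. It also occupies regions that hold sites for other factors, among them AP-1, a dimer of Fos and Jun proteins. Hic-5, encoded by TGFB1I1, is a paxillin family adaptor protein of focal adhesions that also acts in the nucleus as a coregulator of steroid receptors. CHD9 is an ATP-dependent remodeler of the chromodomain helicase family, and BRM, encoded by SMARCA2, is an ATPase of the SWI/SNF remodeling complexes.

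The sequences at the summits of some of the strongest members of each pattern of absence are given as examples of the DNA that lay under them. Each is 80 bp of GRCh38 centred on the summit of the siHic5/siNS peak and named by the protein-coding gene whose start was nearest. Capitals mark the half-sites of the best GRE match (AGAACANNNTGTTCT, at most 2 mismatches at its 12 defined positions) or an AP-1 site (TGACTCA on either strand). The first pair was missing from siCHD9/siNS only, and the element near ZHX3 had 0 mismatches while that near KTN1 had 2.
KTN1, chr14:55543199-55543278, plus strand: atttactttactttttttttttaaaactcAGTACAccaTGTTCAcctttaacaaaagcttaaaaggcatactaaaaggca
ZHX3, chr20:41248779-41248858, plus strand: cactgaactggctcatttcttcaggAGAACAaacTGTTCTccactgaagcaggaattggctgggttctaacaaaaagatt
The second pair, the first and the third by strength of those missing from siBRM/siNS only, had an AP-1 site near PTPRO and a GRE match with 2 mismatches near JPH2. The second by strength, near MYC, is not shown and held neither a GRE match nor an AP-1 site in its 1 kb window.
PTPRO, chr12:15274846-15274925, plus strand: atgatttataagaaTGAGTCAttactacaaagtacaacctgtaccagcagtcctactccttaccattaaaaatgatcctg
JPH2, chr20:44187506-44187585, plus strand: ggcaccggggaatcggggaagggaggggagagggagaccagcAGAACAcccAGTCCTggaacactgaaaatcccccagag
The next pair was missing from both lists, with a GRE match with 1 mismatch near MYOM1 and one with 2 near KCNS1.
MYOM1, chr18:3153458-3153537, plus strand: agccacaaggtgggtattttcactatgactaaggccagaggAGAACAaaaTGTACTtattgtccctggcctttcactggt
KCNS1, chr20:45104729-45104808, plus strand: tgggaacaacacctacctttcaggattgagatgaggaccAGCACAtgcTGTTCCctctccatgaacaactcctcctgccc
A further pair of members missing from siBRM/siNS only, RIPOR2 and STYXL2, was chosen after the values were seen, because AP-1 sites set the patterns of absence apart as described below.
RIPOR2, chr6:25006578-25006657, plus strand: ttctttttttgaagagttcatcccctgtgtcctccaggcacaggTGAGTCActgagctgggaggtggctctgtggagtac
STYXL2, chr1:167136404-167136483, plus strand: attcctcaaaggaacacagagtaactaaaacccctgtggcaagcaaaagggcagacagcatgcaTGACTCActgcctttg

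Of the 2474 shared GBR, those of the siHic5/siNS list that were also called in siNS/siNS, 1600 were called in both double depletions. Members were 44.9% of these 1600 (95% Wilson interval 42.5 to 47.3%, which covers counting error only), and the remaining 882 were called in all 6 lists and served as the comparison set. Among the members, 152 (21.2%) were missing from siCHD9/siNS only, 275 (38.3%) from siBRM/siNS only and 291 (40.5%) from both. In all, 443 members had no siCHD9/siNS peak and 566 had no siBRM/siNS peak. The same was true of 85.5% and 86.9% of all siHic5/siNS GBR, counts that the selection rule itself uses. The list sizes differed, at 2582 peaks in siNS/siNS, 9533 in siHic5/siNS, 2451 in siCHD9/siHic5, 3383 in siBRM/siHic5, 1415 in siCHD9/siNS and 1278 in siBRM/siNS. The weakest peak kept also differed between lists, with a lowest −log10 q-value from 7.26 in siBRM/siNS to 14.2 in siBRM/siHic5, and the part of these cutoffs in the absences was not tested.

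The absences were not near misses of the overlap rule. The smallest gap between a member and the nearest siCHD9/siNS peak, where that list lacked it, was 247 bp, and the smallest to a siBRM/siNS peak was 272 bp. The median gaps were 404 kb and 390 kb. Where a shared region called in both double depletions did have a peak in these lists, the overlap was at least 253 bp in siCHD9/siNS and 248 bp in siBRM/siNS. In the lists that did call the members, the peaks sat on the same spot, with a median distance between summits of 19 bp to siNS/siNS, 17 bp to siCHD9/siHic5 and 19 bp to siBRM/siHic5.

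Members were mostly weak to intermediate peaks in cells with Hic-5. Their −log10 p-value, the strength given by the peak caller, had a median of 18.8 in siNS/siNS, with a range of 12.6 to 61.1, against a median of 41.7 for the GBR called in all lists. The median member ranked 1534.5 of 2582 in that list. In its stronger part, divided at the middle rank, lay 36.2% of members and 91.7% of the GBR called in all lists. By pattern the share was 67.1% for members missing from siCHD9/siNS only, 37.5% for siBRM/siNS only and 18.9% for both. After Hic-5 depletion the median −log10 p-value was 53.5 for members and 97.5 for the GBR called in all lists. When the siHic5/siNS list was divided at its median, 96% of members were in the stronger part. So were 99.3% of the GBR called in all lists and 79.9% of the shared GBR missing from a double depletion. The p-values depend on depth as well as on occupancy, so they are compared here within a list only. In siCHD9/siHic5 the medians were 18.7 and 39.4, and in siBRM/siHic5 37.9 and 84.4. Strength entered the calls that defined the members, so these values describe them and carry no test.

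**Figure D1:**
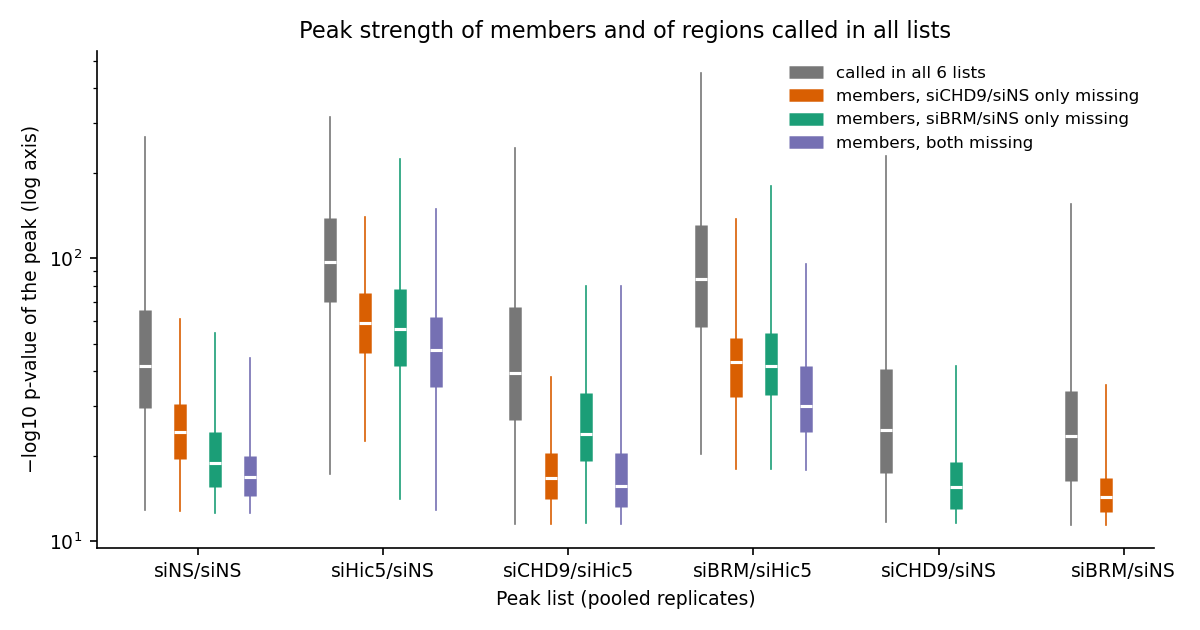
Strength of the peaks in each pooled list, as −log10 p-value on a log axis, for GBR called in all 6 lists (grey) and the 3 patterns of members (colours), with the median as a white tick, the middle 50% as a thick bar and the full range as a thin line. In siNS/siNS the medians were 41.7 for GBR called in all lists and 24.4, 18.9 and 16.9 for members missing from siCHD9/siNS only, siBRM/siNS only and both.

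The 3 patterns differed in strength. In siNS/siNS, members missing from siCHD9/siNS only had the highest median, 24.4, followed by those missing from siBRM/siNS only, 18.9, and those missing from both, 16.9. The order was different in siCHD9/siHic5, where the medians were 16.8, 24.0 and 15.7, so that members lacking a peak after CHD9 depletion alone were also the weaker ones when CHD9 was depleted together with Hic-5. In siBRM/siHic5 the first 2 patterns were close, at 43.0 and 41.5, with 30.0 for members missing from both. Members that kept a peak in one of the single depletion lists were weak there, with a median of 14.3 (11.4 to 35.6) in siBRM/siNS and 15.5 (11.6 to 41.6) in siCHD9/siNS.

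When the 1600 regions were divided into 10 groups of 160 by strength in siNS/siNS, members made up 90.6% of the weakest group, 49.4% of the fifth and 0% of the strongest. Of the 160 regions in the weakest group, 80 were missing from both lists, 55 from siBRM/siNS only and 10 from siCHD9/siNS only. In the seventh group the order had changed, with 19 missing from siCHD9/siNS only, 8 from siBRM/siNS only and 2 from both. Of the members missing from siCHD9/siNS, 185 of 443 (41.8%) ranked in siNS/siNS within the first 1415, the length of the siCHD9/siNS list. For siBRM/siNS, with 1278 peaks, this held for 153 of 566 (27.0%). Of all shared GBR called in both double depletions, 1132 ranked within the first 1415 and 1061 within the first 1278, and 16.3% and 14.4% of these lacked the respective peak.

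**Figure D2:**
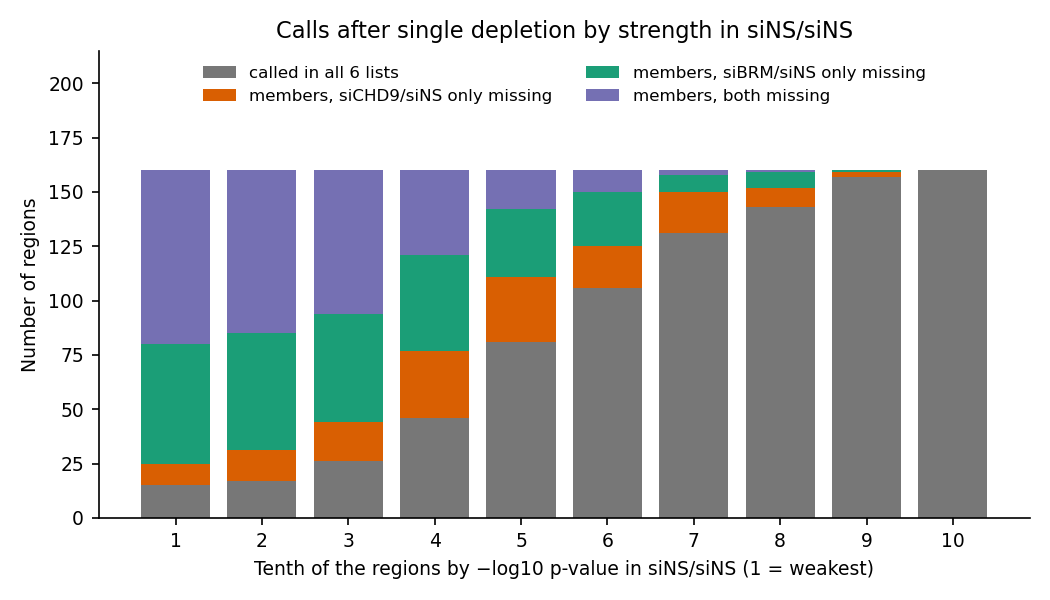
Number of regions in each pattern among the 1600 shared GBR called in both double depletions, in 10 groups of 160 regions by −log10 p-value in siNS/siNS from weakest (1) to strongest (10). Members made up 145 regions of the weakest group, 79 of the fifth and 0 of the strongest.

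The strongest members of each pattern in siNS/siNS were named with the nearest gene. Of those missing from siCHD9/siNS only, the first lay 37.0 kb upstream of KTN1, which encodes the kinesin-binding protein kinectin, with a −log10 p-value of 61.1 in siNS/siNS, 57.7 in siHic5/siNS, 13.0 in siCHD9/siHic5, 24.4 in siBRM/siHic5 and 17.7 in siBRM/siNS. It ranked 250 of 2582 in siNS/siNS and 2119 of 2451 in siCHD9/siHic5. The member in an intron of ZHX3, which encodes a zinc finger and homeobox protein, had 60.4, 108, 19.5, 67.8 and 23.5 in the same lists and carried the GRE with 0 mismatches shown above. It ranked 1320 of 2451 in siCHD9/siHic5, near the middle of that list. The next members of this pattern were a region 19.5 kb upstream of VPS33B (46.1 in siNS/siNS) and one 315 kb downstream of the start of TNS1 (46.1), which encodes the focal adhesion protein tensin 1.

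Of the members missing from siBRM/siNS only, the strongest lay in an intron of RERG, 47.6 kb upstream of the phosphatase gene PTPRO, with −log10 p-values of 54.4 in siNS/siNS, 142 in siHic5/siNS, 48.3 in siCHD9/siHic5, 66.9 in siBRM/siHic5 and 32.6 in siCHD9/siNS. A region 182 kb downstream of the start of MYC, which encodes a transcription factor that drives growth, had 50, 29.3, 20.5, 26.3 and 23.9 in the same lists. The member 0.358 kb upstream of JPH2, which encodes junctophilin 2, had 49.0, 105, 30.9, 83.1 and 27.4. The fourth lay 100 kb downstream of the start of TTC32 and reached 70.7 in siCHD9/siHic5.

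Members missing from both lists were led by a region in an intron of MYOM1, which encodes the muscle protein myomesin 1, with −log10 p-values of 44.3 in siNS/siNS, 63.0 in siHic5/siNS, 28.7 in siCHD9/siHic5 and 26.2 in siBRM/siHic5. A region 3.64 kb upstream of the potassium channel gene KCNS1 had 40.8, 73.3, 16.3 and 35.2. A region in a UTR of ADD2, which encodes the cytoskeletal protein beta-adducin, had 35.2, 71.9, 18.6 and 62.7, and one in an intron of the histone deacetylase gene HDAC4 had 31.8, 87.2, 13.2 and 41.0.

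Sequence was not used to select the members, so it could be tested. In the 1 kb centred on the summit, 211 of 718 members (29.4%) held a GRE match, against 318 of 882 GBR called in all lists (36.1%), an odds ratio of 0.738 (95% interval 0.597 to 0.912). The difference did not pass correction over the 10 motifs searched (Fisher's exact test, 2-sided, p = 0.00545, Benjamini-Hochberg adjusted p = 0.0545). Windows 5 kb to either side held a match in 7.10% of cases for members, and 24.6% of all siHic5/siNS GBR held one. Matches were close to the summit, at a median distance of 22 bp in members. In the central 200 bp the best GRE match of members had 3.24 ± 1.15 mismatches (SD, n = 718) against 3.02 ± 1.15 (n = 882), a difference of 0.226 (2-sided permutation test, adjusted p = 0.00032). Within 10 groups of like strength in siHic5/siNS the difference was 0.125 (permutation test within groups, adjusted p = 0.31), so it did not pass the threshold between regions of like strength. This mean gave each group equal weight. The strongest group held 2 members and the next 12, so the value rests partly on few members. In the central 200 bp, the best match had 0 mismatches in 4 members (0.557%) and 1 in 40 (5.57%). In the GBR called in all lists these counts were 11 (1.25%) and 70 (7.94%).

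The other motifs did not separate members from GBR called in all lists. An AP-1 site was found in 43.2% of members and 41.5% of the comparison set (odds ratio 1.07, 0.878 to 1.31), and in 16.8% of the flanking windows of members. The ETS sequences CAGGAAG and CCGGAAG were in 38.9% and 40.8% (odds ratio 0.922, 0.753 to 1.13), with 32.4% in the flanks of members. The C/EBP sequence TTGCNNAA was in 44.2% and 38.9% (Fisher's exact test, adjusted p = 0.181). The remaining searches were for the single GR half-site AGAACA and for RUNX (TGTGGTT), TEAD (GGAATGT), FOX (TGTTTAC), KLF/SP (GGGCGG) and CTCF (AGGGGGC), on both strands. By Fisher's exact test 0 of the 10 motifs passed an adjusted threshold of 0.05, and 2 had an unadjusted p below it. GC content in the 1 kb window was 48.0 ± 8.28% (SD, n = 718) in members and 49.2 ± 8.18% (n = 882) in the comparison set, a difference of -1.26 percentage points (permutation test, adjusted p = 0.0042) that was -0.0895 within groups of like strength. The value within groups again weighted all groups equally, including the strongest ones with few members.

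AP-1 sites did differ between the patterns of absence. They were present in 34 of 152 members missing from siCHD9/siNS only (22.4%, Wilson interval 16.5 to 29.6%) and in 148 of 275 missing from siBRM/siNS only (53.8%, 47.9 to 59.6%). The odds ratio was 0.247 (0.158 to 0.387; Fisher's exact test, 2-sided, p = 1.7e-10, adjusted over 10 motifs p = 1.7e-09). No other motif passed the threshold in this comparison; the GRE was in 33.6% and 26.5% (odds ratio 1.4, 0.909 to 2.15, Fisher's exact test, adjusted p = 0.41). Flanking windows of 1 kb held an AP-1 site in 18.8% and 15.6% of cases. Over 1 kb, the share at members missing from siCHD9/siNS only was thus close to that of their surroundings. In the central 200 bp the shares were 8.55% and 27.6% (odds ratio 0.245, Fisher's exact test, adjusted p = 1.61e-05), against 3.29% and 3.09% in flanking windows of that length. There the shares of both patterns were above those of their flanks.

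**Figure D3:**
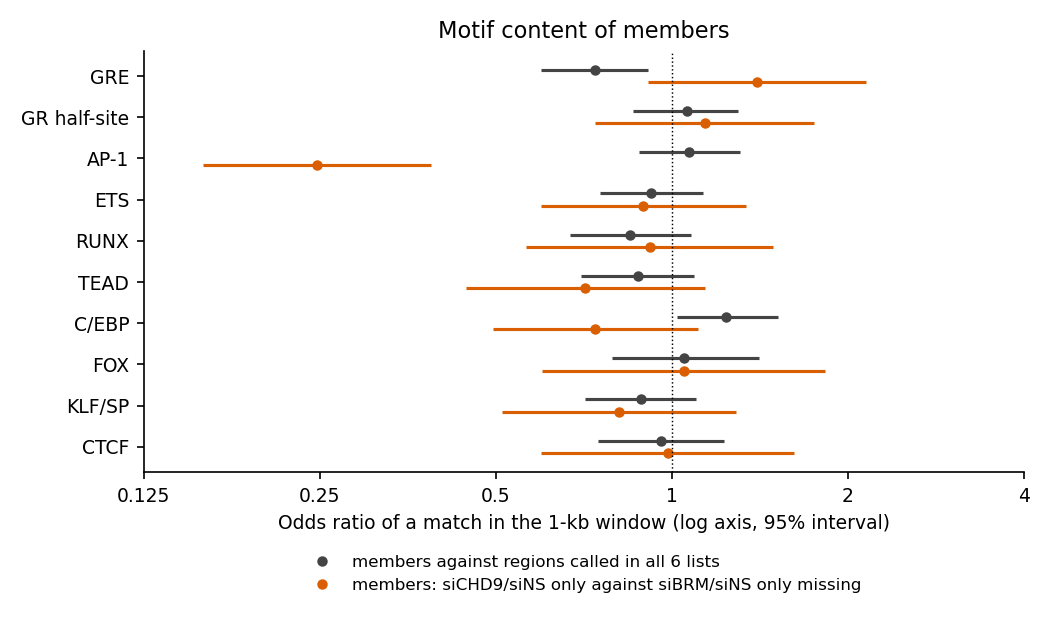
Odds ratios of a motif match in the 1-kb window, with 95% intervals on a log axis, for members against GBR called in all 6 lists (grey) and for members missing from siCHD9/siNS only against those missing from siBRM/siNS only (orange). AP-1 stands at 0.247 in the second comparison and 1.07 in the first.

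Members missing from both lists held an AP-1 site in 128 of 291 cases (44%). Set against the 41.5% of GBR called in all lists, a comparison added after the data were seen, the share was lower in members missing from siCHD9/siNS only (odds ratio 0.406, 0.271 to 0.609, Fisher's exact test adjusted over 3 comparisons p = 1.66e-05) and higher in those missing from siBRM/siNS only (1.64, 1.25 to 2.16, adjusted p = 0.000579). For members missing from both the odds ratio was 1.11 (0.847 to 1.45, Fisher's exact test, adjusted p = 0.494). The 43.2% over all members thus averaged over patterns with shares below and above that of the comparison set. Combinations of motifs were counted without a test. Of the members missing from siBRM/siNS only, 14.2% held both a GRE match and an AP-1 site, 39.6% an AP-1 site alone, 12.4% a GRE match alone and 33.8% neither. Of those missing from siCHD9/siNS only, the shares were 4.61%, 17.8%, 28.9% and 48.7%.

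**Figure D4:**
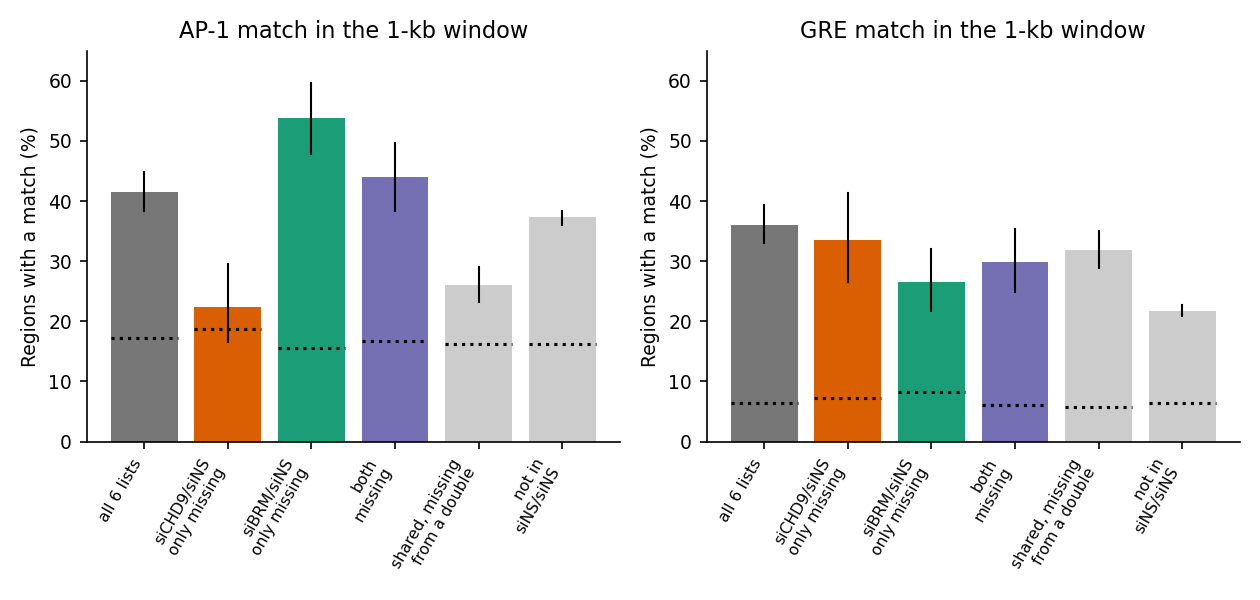
Share of regions with an AP-1 site (left) or a GRE match (right) in the 1-kb window, with 95% Wilson intervals as vertical lines and the share in flanking windows as dotted lines, for GBR called in all lists, the 3 patterns of members, and in light grey the shared GBR missing from a double depletion and the GBR not called in siNS/siNS. The AP-1 share is 22.4% in members missing from siCHD9/siNS only and 53.8% in those missing from siBRM/siNS only.

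The AP-1 difference was present at each level of strength. Among members with a −log10 p-value under 20 in siNS/siNS, 9 of 42 missing from siCHD9/siNS only (21.4%) and 85 of 158 missing from siBRM/siNS only (53.8%) held a site. Between 20 and 30 the shares were 28.2% of 71 and 54.9% of 91, and over 30 they were 12.8% of 39 and 50% of 26. The common odds ratio over 5 groups of like strength was 0.254 by strength in siHic5/siNS, 0.267 by siNS/siNS and 0.361 by siCHD9/siHic5. The sites lay near the summit in members missing from siBRM/siNS only, at a median distance of 93 bp over 148 regions. In the 34 regions missing from siCHD9/siNS only the median was 126 bp.

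**Figure D5:**
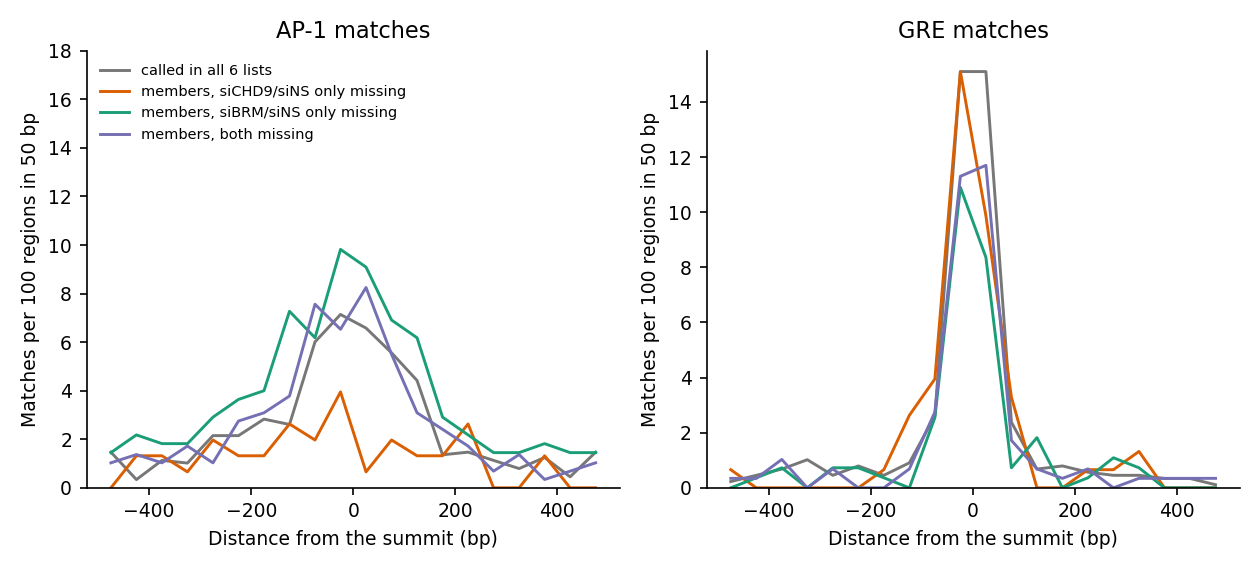
AP-1 sites (left) and GRE matches (right) per 100 regions in bins of 50 bp by distance from the summit, for GBR called in all 6 lists (grey) and the 3 patterns of members (colours). Distances are in genome coordinates, not oriented by a gene. In the bin centred at -25 bp, members missing from siBRM/siNS only held 9.82 AP-1 sites per 100 regions and those missing from siCHD9/siNS only 3.95.

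Regions that are not members allowed the comparison to be repeated between the double depletions, an analysis added after the members' values were seen. Among shared GBR, 24.6% of the 520 missing from siCHD9/siHic5 only and 39.5% of the 76 missing from siBRM/siHic5 only held an AP-1 site (odds ratio 0.501, 0.303 to 0.827, Fisher's exact test p = 0.00808). In the central 200 bp this comparison gave an odds ratio of 0.55 (0.284 to 1.07, Fisher's exact test p = 0.0793). Among GBR not called in siNS/siNS the shares were 40.5% of 783 and 57.1% of 268 (odds ratio 0.511, 0.386 to 0.677, Fisher's exact test p = 3.42e-06). Over whole lists, AP-1 sites were in 46.9% of siCHD9/siHic5 peaks and 45.6% of siCHD9/siNS peaks, against 36.1% in siNS/siNS, 37.1% in siHic5/siNS, 41.1% in siBRM/siHic5 and 36.0% in siBRM/siNS.

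Members lay mostly far from gene starts, as did the comparison set. The summit was within 2 kb of the start of a protein-coding gene in 53 members (7.38%) and 65 GBR called in all lists (7.37%), an odds ratio of 1 (0.687 to 1.46, Fisher's exact test p = 1). Introns held 43.2% of members, intergenic DNA 53.1%, coding exons 1.95% and UTRs 1.81%. The median distance to the nearest start was 56.7 kb for members and 52.6 kb for the comparison set. Another siHic5/siNS peak lay within 10 kb of 38.7% of members and 42.5% of the comparison set (odds ratio 0.854, 0.699 to 1.04, Fisher's exact test, adjusted p = 0.17). Among the 10 members nearest to a start were those of COPS9, a small subunit of the COP9 signalosome, 0.028 kb downstream, of A2M, which encodes the protease inhibitor alpha-2-macroglobulin, 0.038 kb downstream, and of TGIF1, a homeobox repressor of TGF-beta signalling, 0.041 kb downstream. All 3 were missing from both single depletion lists. The member 0.039 kb downstream of the start of the ubiquitin-conjugating enzyme gene UBE2E2 was missing from siBRM/siNS only. Its −log10 p-value was 25.2 in siNS/siNS, 84.3 in siHic5/siNS and 101 in siBRM/siHic5.

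Genes from lists of GR targets and related pathways were read against the 6.27% of 20020 protein-coding genes that had a member within 100 kb of their start. Nearness does not show that a region regulates a gene, and genes differ in how many GBR of any kind surround them. Of 30 known GR targets, 8 (26.7%) had a member nearby. MT1X and MT2A, which encode metal-binding metallothioneins, shared 1 region, 0.206 kb upstream of MT1X and missing from both lists, with −log10 p-values of 21.2 in siNS/siNS, 60.9 in siHic5/siNS, 19.7 in siCHD9/siHic5 and 27.7 in siBRM/siHic5. SCNN1A, a subunit of the epithelial sodium channel, had an intronic member missing from siCHD9/siNS only, with 15.8 in siNS/siNS, 42.9 in siHic5/siNS and 13.6 in siBRM/siNS. Intronic members of CRISPLD2 and of TNFAIP3, an inhibitor of NF-kappaB signalling, were missing from both lists, as was one 24.1 kb upstream of the transcription factor gene KLF9. TSC22D3, which encodes the anti-inflammatory protein GILZ, had a member 98.5 kb downstream of its start that was missing from siCHD9/siNS only, and RGS2, a regulator of G-protein signalling, had one 98.7 kb downstream missing from siBRM/siNS only.

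Of 26 genes of focal adhesions and actin attachment, where Hic-5 itself acts, 6 (23.1%) had a member within 100 kb. The strongest in siHic5/siNS lay 2.06 kb upstream of ITGA5, which encodes the alpha subunit of a fibronectin receptor, and was missing from siBRM/siNS only. Its −log10 p-value was 19 in siNS/siNS, 224 in siHic5/siNS, 62.1 in siCHD9/siHic5, 181 in siBRM/siHic5 and 15.5 in siCHD9/siNS, with rank 62 of 9533 in siHic5/siNS and 1520 of 2582 in siNS/siNS. The lists differ in length and cutoff, so these ranks are given side by side only. ITGA3 and PARVA each had 2 members within 100 kb, the nearest being intronic and missing from both lists. The other member was missing from both lists at ITGA3 and from siBRM/siNS only at PARVA. LPP had an upstream member missing from both lists, and PTK2B had one missing from siCHD9/siNS only. In the remaining lists the shares were 2 of 16 clock genes (NR1D1 and BHLHE40), 1 of 20 TGF-beta genes (TGFBR2), 1 of 19 osteoblast genes (ALPL) and 1 of 24 remodelers and coregulators. The last was CHD9 itself, with an intronic member 76.8 kb downstream of its start that was missing from siCHD9/siNS only and had 16.9 in siNS/siNS, 54.4 in siHic5/siNS and 13.9 in siBRM/siNS.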

How the data were processed

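The 12 ChIP libraries in 6 siRNA combinations had been reduced by the authors to 1 peak list each. Per the study's methods, the authors aligned trimmed reads to GRCh38 (hg38) using BWA. Duplicates and reads from mitochondrial DNA were discarded, and peaks were called with MACS2 and the IDR framework. The peak names in the deposited lists mark them as peaks of pooled replicates. The versions and the IDR threshold were not given in the sources used here. The deposited lists give each peak's position, its −log10 p-value and −log10 q-value, its summit offset, a score and a signal value. The score and the deposited signal value were not used, since the file does not settle the scale of the signal. The lists hold no read counts. The study gives raw read totals, which were not used here, so no value was adjusted for depth, and no replicate could be left out.

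Members and gene lists were chosen with earlier results of these data known. Regions were matched by an overlap of 1 bp. Motifs were searched on both strands of GRCh38 in 1 kb windows on the summit, and genes were taken from GENCODE release 44, using the canonical start of protein-coding genes. Differences between region sets were tested with Fisher's exact test (2-sided), by Mantel-Haenszel odds ratios over groups of like strength, and by permutation tests, with Benjamini-Hochberg adjustment. The permutation tests used 100000 resamples, and fewer where labels were permuted within groups of like strength. Named regions were the 4 members of each pattern with the highest −log10 p-value in siNS/siNS, the 10 members nearest to a gene start, and the nearest member of each listed gene. The region of 1 listed gene is not reported here. The overlap, motif and odds ratio code was tested on simulated data. Python 3.11.15, SciPy 1.17.1, statsmodels 0.14.6 and samtools 1.23.1 were used. Alternatives varied the overlap rule, the peak cutoff, the window and the strength groups.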

Additional observations from a re-analysis of the deposited data

How the results depend on the processing

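Members depended on the peak cutoff more than on the overlap rule. Their number was 703 to 723 with summits within 200 bp, an overlap of 50% of either peak or peaks within 250 bp, and 724 when the rule was applied to the siNS/siNS list. At a common −log10 q-value cutoff of 14.2 it was 506, of which 206 were among the 718, with a share of 51.4%. At a cutoff of 20 it was 380 (56 of the 718; 54.7%), and with the 1000 strongest peaks of each list 52 (21 of the 718; 9.32%). The AP-1 odds ratio between the single patterns stayed between 0.245 and 0.405 and past the threshold under all 8 alternatives run. The value nearest to 1 was at the common cutoff (Fisher's exact test, adjusted p = 0.0128). Of these 8, only the 200 bp window was planned. This odds ratio was not computed at the cutoff of 20 or with the 1000 strongest peaks. The GRE odds ratio of members against GBR called in all lists passed the threshold of Fisher's exact test in the 200 bp window (0.708, adjusted p = 0.0229) and with the 8 best conserved positions (0.639, adjusted p = 0.000551), and turned to 1.01 in groups by siNS/siNS strength. In those groups the AP-1 odds ratio turned to 0.715. The ETS odds ratio turned to 1.01 in the 200 bp window, to 1.22 in 10 strength groups and to 1.23 in 5. The GC difference lost the threshold of the permutation test at 200 bp (-1.02, adjusted p = 0.053), at 100 bp (-1.02, adjusted p = 0.064) and in strength groups (-0.0895), as did GRE match quality in strength groups (0.125), and the odds ratio of a near neighbour turned to 1.18 there. The cause of these changes was not tested. No paired analysis was possible because the replicates were pooled in each list, which also left no replicate to leave out.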

Other observations

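Some genes had several members nearest to their start. Their patterns of absence were mixed at some, as at SCARB1 and ZFP36L1, and the same at others: all 3 members nearest to LIF and all 3 nearest to SLC39A11 were missing from siBRM/siNS only, and all 3 nearest to ZEB2 from both lists. SCARB1, which encodes a receptor for high-density lipoprotein, had 4 members 108470 to 142857 bp downstream of its start. The member at 142857 bp was missing from siCHD9/siNS only, with a −log10 p-value of 39.2 in siNS/siNS and 18.2 in siBRM/siNS, and the one at 117845 bp was missing from siBRM/siNS only, with 41.3 in siNS/siNS and 17.7 in siCHD9/siNS. The other two were missing from both lists, with 15.2 and 30.0 in siNS/siNS. ZFP36L1, which encodes an RNA-binding protein that promotes mRNA decay, had the nearest start to 3 members, 1 of each pattern. They lay 333905, 286947 and 242501 bp downstream of that start, with 17.3, 14 and 34.2 in siNS/siNS. All 3 were annotated as intronic, but the gene that holds these introns was not recorded here. These regions were picked for their number after the lists were seen, and no test was made of the grouping.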
